A study of Mus musculus with 11 samples.

Results

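The mitochondrial ribosomal protein genes are the nuclear genes whose products build the ribosome inside mitochondria. They were taken as every gene whose only symbol in the probe annotation begins with Mrpl or Mrps followed by a number, where l stands for the large and s for the small ribosomal subunit. The rule found 76 genes, 47 with a large-subunit and 29 with a small-subunit symbol, among 18193 genes with a single symbol on the array. Each gene was read by its brightest probe set, a group of short oligonucleotides that together detect 1 transcript, chosen by the mean signal over all 11 arrays. All 76 passed the filter on dim probe sets, as did 12192 of the 18193 genes, and their lowest signal on any array was 3000.7 intensity units.

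RNA came from the tibialis anterior, a fast muscle of the mouse shin, either with its nerve intact (innervated) or 3 days after denervation. Control mice were runx1f/-, a floxed Runx1 allele over a null allele, and mutant mice carried the same runx1f/- alleles together with MCK::cre. MCK is the muscle creatine kinase promoter, which drives the Cre recombinase in muscle fibres, so other cells of the muscle were not targeted. The groups were innervated control (3 arrays), denervated control (3 arrays), innervated mutant (2 arrays) and denervated mutant (3 arrays). Both genotypes shared the null allele, and an effect of Cre itself cannot be told apart from one of Runx1 loss, since only the mutants carried Cre. The title of denervated control 3 says 3 days and its treatment note 5 days. Ages are not stated. Nothing states that the arrays of a group came from separate animals, so p-values measure only the spread between these samples, which may be technical.

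Mitochondrial ribosomes translate the few messages encoded by mitochondrial DNA, which in mammals all specify core subunits of the respiratory chain and of ATP synthase. Their ribosomal RNAs come from mitochondrial DNA, but all of their proteins are made in the cytosol and imported. Skeletal muscle is rich in mitochondria, and loss of its nerve is known to lower its oxidative capacity. Many of the proteins have a counterpart in bacterial ribosomes, and the rest were gained in the mitochondrial lineage.

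The targeted gene, Runx1, which encodes a transcription factor known to be induced by denervation, lay between 178.9 and 519.1 intensity units at its brightest probe set on the innervated arrays and between 20403 and 25898 when denervated, in both genotypes. The log2 difference between denervated mutant and denervated control muscle at that probe set was -0.21 (limma adjusted p = 0.884), and no source used here says which probe sets lie in the deleted part. Of its 5 other probe sets, those with log2 changes of 6.08, 3.66 and 6.98 in control muscle rose in mutant muscle too (5.75, 3.36 and 6.6). A further 1 rose in control (1.29, limma adjusted p = 0.00177) and not by the test in mutant muscle (-0.14, limma adjusted p = 0.759). This probe set differed between denervated mutant and denervated control muscle by -0.82 (limma adjusted p = 0.165). For the probe set that rose by 3.66 that difference was -1.07 (limma adjusted p = 0.427). Innervated control 2 stood apart within its group. In it 72 of the 76 mitochondrial ribosomal protein genes had the lowest of the 3 signals, with a median log2 difference from the other arrays of the group of -0.62, against -0.01 for all genes. Most counts of calls in control muscle are therefore given with and without that array. Some, such as those by motif, by probe set and between list medians, are given with all arrays only. The summed signal of 10 muscle fibre genes, the markers of the labelled tissue, was lower on all denervated than on all innervated arrays. It was 2230686 to 2537751 in innervated and 1479150 to 2114653 in denervated control muscle. In mutant muscle it was 2416807 to 2716155 with the nerve intact and 1528368 to 1906574 after denervation. The log2 signal of the spike-in controls averaged 13.37 after denervation (6 arrays) and 14.02 with the nerve intact (5 arrays) (difference -0.65, two-sided exact permutation p = 0.00433 over 462 splits). The log2 ratio of the 3' to the 5' probe sets of Actb, a sign of RNA quality, averaged 0.23 and 0.03 (two-sided exact permutation p = 0.00866). The same ratio of Gapdh averaged -0.25 and -0.28 (two-sided exact permutation p = 0.223). Their part in the differences between innervated and denervated muscle was not tested.

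In denervated control muscle, 14 mitochondrial ribosomal protein genes fell, 5 rose and 57 did not pass the test. Of all 12192 genes 16.4% were called lower and 18.1% higher, so moves in both directions were not particular to this group. Mrpl18 fell the most, by 1.14 on the log2 scale, and Mrps18b rose the most, by 0.84. The test was limma on log2(signal + 16), fitted on all 11 arrays and all tested probe sets, with Benjamini-Hochberg adjustment over all of them and a threshold of 0.05 on the adjusted p. The count of mitochondrial ribosomal protein genes that fell thus lies near the share over all genes, and that of genes that rose below it. These directions hold relative to the array scaling as deposited: centred on the spike-in controls, where the median of all genes moves to 0.82, 0 of the 76 fell and 51 rose (60.5% of all genes higher). The median log2 change over the 76 genes was -0.03, against -0.01 over all genes, and the changes ran from -1.14 to 0.84. The quartiles were -0.34 and 0.28, against -0.42 and 0.41 over all genes. Among the large-subunit symbols 11 of 47 fell and 3 rose (median -0.09), and among the small-subunit symbols 3 of 29 fell and 2 rose (median 0.00). Of the 47 genes with a counterpart in bacteria, 12 fell and 3 rose (median 0.00), and of the 28 without one, 1 fell and 2 rose (median -0.03). These splits shift without innervated control 2, where 15 large-subunit symbols fell and 1 rose (median -0.21) and 8 small-subunit symbols fell and 2 rose (median -0.19). There 17 genes with a bacterial counterpart fell and 2 rose (median -0.21), and 5 without one fell and 1 rose (median -0.19).

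Without innervated control 2, 23 of the 76 genes fell and 3 rose in control muscle, where 16.7% of all genes were called lower and 17.2% higher, and the median of the 76 was -0.20 against -0.02 for all genes. All 14 genes that fell with the full set also fell here. The 9 added were Mrpl13, Mrpl39, Mrpl46, Mrpl51, Mrps11, Mrps15, Mrps16, Mrps21 and Mrps33, with log2 changes between -1.0 (Mrps21) and -0.37 (Mrpl39). Mrps18b, Mrpl17 and Mrps30 still rose, whereas Mrpl10 (0.38, limma adjusted p = 0.0527) and Mrpl40 (0.33, limma adjusted p = 0.114) no longer passed. The other control arrays mattered too. Without innervated control 1, 5 fell and 8 rose (13.7% of all genes lower, 16.1% higher), and without innervated control 3, 5 and 6 (13.8% and 16.6%). Without denervated control 1, 7 fell and 3 rose (13.7% and 15.0%), and without denervated control 2, 6 and 3 (13.3% and 15.0%). Without denervated control 3, the array with the 5-day note, 9 fell and 4 rose (15.3% and 15.4%). The share of all genes thus moved less, in proportion, than the count of these genes. Deviations of control arrays of equal replicate number from their group means correlated at 0.11, 0.22 and 0.30, but arrays of unequal number were not compared. With the replicate number as a block in the 6 control arrays alone 16 genes fell and 9 rose (17.3% of all genes lower, 18.8% higher).

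**Figure D1:**
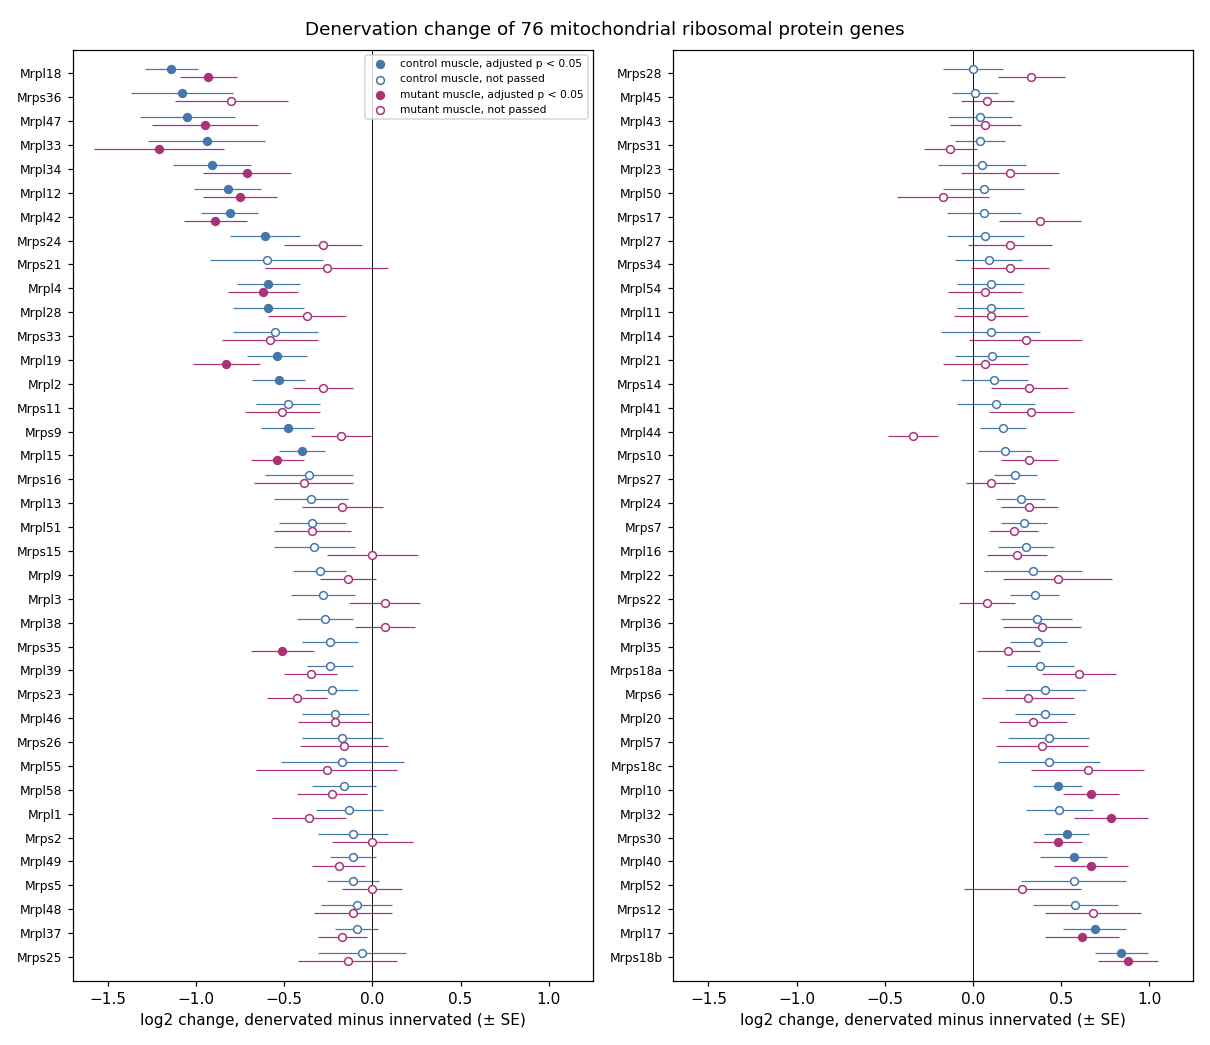
Log2 change with denervation (x axis, with its standard error) of each of the 76 mitochondrial ribosomal protein genes (rows, ordered by the change in control muscle) in control (blue) and mutant muscle (purple). Filled points passed an adjusted p of 0.05: 14 lower and 5 higher in control, 10 lower and 6 higher in mutant muscle.

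Mrpl18, the large-subunit protein related to the bacterial protein that binds 5S ribosomal RNA, read 31433, 22628 and 29964 intensity units in innervated control and 12585, 12211 and 12851 in denervated control muscle. All 3 denervated arrays lay below all 3 innervated ones, and the gene fell 2.21-fold (log2 change -1.14 ± 0.15, SE; limma adjusted p = 6.98e-05). Without innervated control 2 the log2 change was -1.29. Of all the settings tried, it did not pass only when arrays were centred on the spike-in controls.

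Mrpl12 forms the flexible stalk that recruits translation factors, and it is also known to contact the mitochondrial RNA polymerase. It read 32179, 21686 and 34482 units in innervated control and 17191, 14756 and 17347 in denervated control muscle, without overlap. The gene fell 1.76-fold (log2 change -0.82 ± 0.19, SE; limma adjusted p = 0.00539). Mrpl10 encodes the protein on which the stalk is mounted, and it went the other way, from 7852, 6625 and 8501 units to 10565, 10987 and 10395 (log2 change 0.48 ± 0.14, SE; limma adjusted p = 0.0199). Mrpl11, a further protein of the stalk base, did not pass (log2 change 0.10, limma adjusted p = 0.738). Within the stalk region the 3 genes thus had a fall, a rise and no call with all arrays. Without innervated control 2 Mrpl10 did not pass (log2 change 0.38, limma adjusted p = 0.0527).

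Mrpl42, a large-subunit protein with no bacterial counterpart, read 94283, 64098 and 90837 units in innervated control and 49928, 43076 and 47140 in denervated control muscle. The groups did not overlap, and the log2 change was -0.81 ± 0.16 (SE; limma adjusted p = 0.00184). Mrpl47, the homolog of bacterial L29, read 19256, 10078 and 21491 units and then 8986, 6054 and 8632. Its innervated control 2 value lay close to the denervated ones, and its log2 change was -1.05 ± 0.27 (SE; limma adjusted p = 0.00959), or -1.39 without that array.

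Mrpl33 and Mrpl34 are small basic proteins of the large subunit. Mrpl34 fell from 10930, 6215 and 10246 units to 4686, 4441 and 5033 (log2 change -0.91 ± 0.22, SE; limma adjusted p = 0.00703). Mrpl33 read 23734, 15213 and 21179 units in innervated control and 6746, 8790 and 18290 in denervated control muscle. Denervated control 3 lay inside the innervated range, so the groups overlapped, and the log2 change of -0.94 ± 0.33 (SE) stood near the threshold (limma adjusted p = 0.0484).

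Mrps36 was named for the small subunit but is now assigned to the 2-oxoglutarate dehydrogenase complex of the citric acid cycle. It read 20613, 8780 and 19269 units in innervated control and 6843, 6730 and 8046 in denervated control muscle, with innervated control 2 just above the denervated range. Its log2 change was -1.08 ± 0.29 (SE; limma adjusted p = 0.0131).

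The other 7 genes that fell changed by less. Mrpl4, whose protein lines the exit tunnel of the nascent chain, changed by -0.59 (limma adjusted p = 0.0257) and Mrpl2, a core protein near the catalytic centre, by -0.53 (limma adjusted p = 0.0181). Mrpl28 changed by -0.59, with innervated control 2 (6403 units) inside the denervated range of 5574 to 6597. Mrpl19 changed by -0.54 and Mrpl15 by -0.40, both on the large subunit. On the small subunit, Mrps24, the homolog of bacterial S3 at the messenger RNA entry, changed by -0.61 (limma adjusted p = 0.0324) and Mrps9 by -0.48 (limma adjusted p = 0.027). The probe sets of Mrpl19 and Mrps24 carry a suffix that marks possible detection of other transcripts, as do those of Mrpl37, Mrpl38, Mrps6 and Mrps12.

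Mrps18b encodes 1 of the 3 mitochondrial relatives of bacterial S18. It read 12001, 8899 and 12773 units in innervated control and 18345, 20546 and 20963 in denervated control muscle. Every denervated array lay above every innervated one, and the gene rose 1.79-fold (log2 change 0.84 ± 0.15, SE; limma adjusted p = 0.000986), or by 0.69 without innervated control 2. The related Mrps18a, whose protein sits in the large subunit in mammals, had a log2 change of 0.38 (limma adjusted p = 0.157), and Mrps18c 0.43 (limma adjusted p = 0.294).

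Mrps30 carries a small-subunit symbol, but its protein also sits in the large subunit of the mammalian ribosome. It read 7022, 6304 and 6667 units in innervated control and 10030, 10340 and 8568 in denervated control muscle, without overlap (log2 change 0.53 ± 0.13, SE; limma adjusted p = 0.00709). Leaving out innervated control 2 hardly moved it (0.49). Mrpl17, a protein at the mouth of the exit tunnel, read 15788, 10333 and 15904 units and then 24577, 20509 and 21735 (log2 change 0.69 ± 0.18, SE; limma adjusted p = 0.012). Its other tested probe sets were dimmer (mean signals 567.48 and 552.09, against 19035) and did not pass. They changed by -0.42 and 0.18 in control and by -0.72 and -1.06 in mutant muscle. Mrpl40 read 7089, 4141 and 6442 units and then 8549, 8889 and 8099 (log2 change 0.57 ± 0.19, SE; limma adjusted p = 0.0387).

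**Figure D2:**
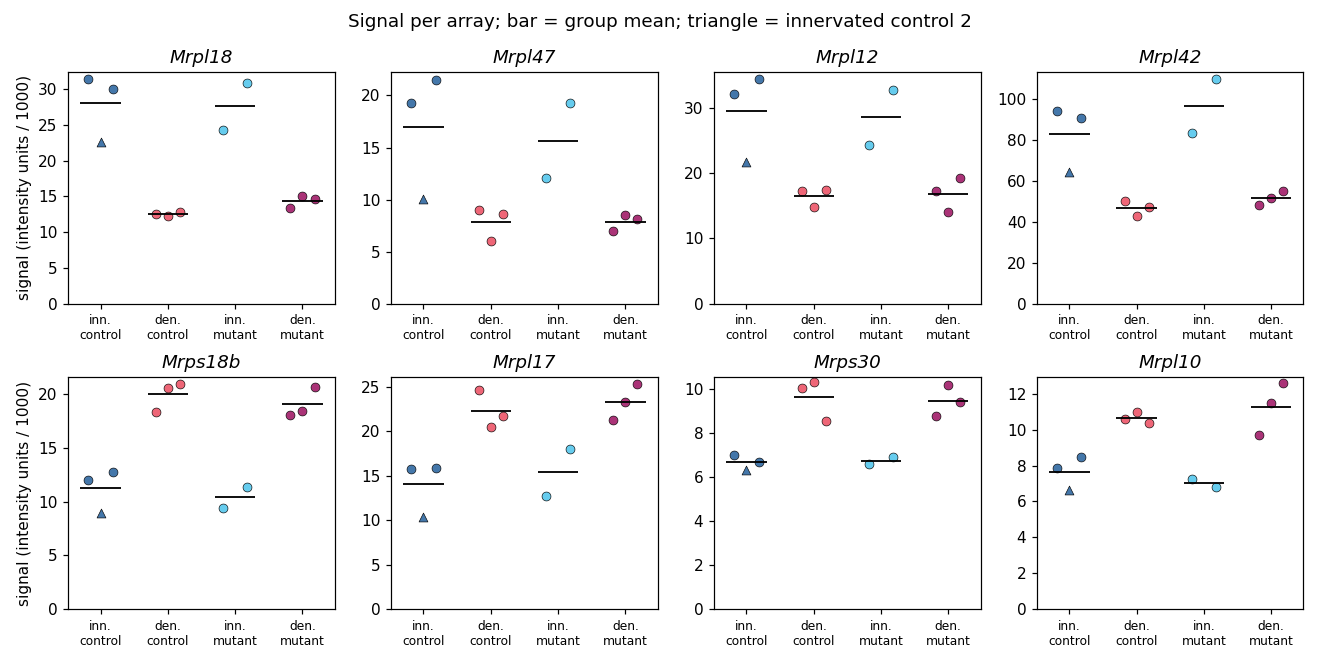
Signal on each array (y axis, intensity units divided by 1000, from 0) of 4 genes that fell (top row) and 4 that rose (bottom row) in control muscle, by group on the x axis. Points are arrays, the bar is the group mean and the triangle is innervated control 2, which lay lowest of its group in each of the 8 genes. In Mrpl18 the denervated arrays sit near 12211 to 15126 units and the lowest innervated array at 22628.

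Other genes with known roles did not pass in control muscle. Mrpl3, a core large-subunit protein, had a log2 change of -0.28, and Mrpl45, which helps to hold the ribosome at the inner membrane, 0.01. Mrpl58, a peptidyl-tRNA hydrolase that rescues stalled ribosomes, had -0.16, and Mrpl44, which has a ribonuclease III fold, 0.17. Mrpl41 had 0.13 and Mrpl36 0.36. On the small subunit Mrps12, a protein of the decoding centre, had 0.58 (limma adjusted p = 0.0957). Mrps2 had -0.11, Mrps5 -0.11, Mrps6 0.41, Mrps16 -0.36, Mrps22 0.35, Mrps27 0.24, Mrps28 0.00 and Mrps34 0.09. Mrps21 (-0.60, limma adjusted p = 0.179) and Mrpl52 (0.57, limma adjusted p = 0.174) had large changes with a wide spread between arrays.

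In mutant muscle 10 of the 76 genes fell with denervation, 6 rose and 60 did not pass, where 13.9% of all genes were called lower and 16.7% higher. The median log2 change was 0.00 and the range -1.21 to 0.88. The arrays of this comparison are other arrays than those of control muscle, with a shared estimate of the spread. Of the genes that fell, 9 did so in both genotypes, which is 64.3% of the 14 in control and 90% of the 10 in mutant muscle. Of the genes that rose, 5 did so in both, which is 100% of the 5 in control and 83.3% of the 6 in mutant muscle. Across the 76 genes the log2 changes in the 2 genotypes had a Pearson r of 0.92 and a Spearman rho of 0.91, and 70 genes (92.1%) had the same sign. Across all 12192 genes r was 0.81 and 80.5% had the same sign. These are correlations across genes, which are not independent replicates.

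Mrpl33 changed most in mutant muscle, from 15957 and 25207 units to 12093, 6962 and 7634 (log2 change -1.21 ± 0.37, SE; limma adjusted p = 0.028). Here the groups did not overlap. Mrpl18 read 24338 and 30834 units in innervated mutant and 13385, 15126 and 14601 in denervated mutant muscle (log2 change -0.93 ± 0.16, SE; limma adjusted p = 0.00109). Mrps18b read 9436 and 11310 units and then 18073, 18439 and 20612 (log2 change 0.88 ± 0.17, SE; limma adjusted p = 0.00204). Both genes thus kept apart the innervated and denervated arrays of either genotype.

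Mrpl47 (-0.95), Mrpl42 (-0.89), Mrpl19 (-0.83), Mrpl12 (-0.75), Mrpl34 (-0.71), Mrpl4 (-0.62) and Mrpl15 (-0.54) also fell in mutant muscle. Mrpl17 (0.62), Mrpl10 (0.67), Mrpl40 (0.67) and Mrps30 (0.48) rose. Mrps35, a small-subunit protein gained in the mitochondrial lineage, passed in mutant muscle only narrowly (-0.51, limma adjusted p = 0.0498), against -0.24 in control muscle (limma adjusted p = 0.296). Mrpl32, whose protein is matured by the m-AAA protease before it is built into the ribosome, read 13198 and 14080 units in innervated mutant and 20962, 23601 and 25746 in denervated mutant muscle (log2 change 0.78 ± 0.21, SE; limma adjusted p = 0.0171). In control muscle its log2 change was 0.49 (limma adjusted p = 0.0732). Mrps36 had -0.80 in mutant muscle (limma adjusted p = 0.0851), and Mrps33 (-0.58), Mrps12 (0.68) and Mrps18c (0.65) did not pass either.

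The counts in mutant muscle also rested on single arrays. Without innervated mutant 2, 3 genes fell and 4 rose (8.58% of all genes lower, 11.3% higher), and without innervated mutant 1, 10 and 2 (9.05% and 12.3%). Without denervated mutant 1, 6 fell and 4 rose (11.9% and 13.3%), without denervated mutant 2, 4 and 3 (10.5% and 12.9%), and without denervated mutant 3, 4 and 2 (10.3% and 12.8%). Without innervated control 2, which enters this comparison only through the shared spread, 14 fell and 8 rose (15.9% and 19.6%). With 1 innervated mutant array left, that array is assumed to vary like the other groups.

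No mitochondrial ribosomal protein gene was called different between genotypes, in either state of the nerve, by limma at an adjusted p of 0.05. In denervated muscle 1.12% of all genes were called lower and 1.04% higher in the mutant, and 0 of the 76 were called (1 had an unadjusted p under 0.05). That gene was Mrps28, at 26634, 21308 and 25046 units in denervated control and 31455, 29303 and 33605 in denervated mutant muscle. The groups did not overlap, and its log2 difference was 0.37 (95% interval 0.01 to 0.74; limma adjusted p = 0.427). The next genes were Mrpl38 with 0.33 (0.00 to 0.67), Mrpl44 with -0.25 (-0.53 to 0.03), Mrps27 with -0.23 (-0.49 to 0.03) and Mrpl32 with 0.33 (-0.08 to 0.75). The median difference over the 76 genes was 0.10, against 0.01 over all genes.

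In innervated muscle 0% of all genes and 0 of the 76 were called by limma, and 0 of the 76 had an unadjusted p under 0.05. The smallest p was that of Mrpl44, with a log2 difference of 0.26 (95% interval -0.05 to 0.57). Mrpl20 had 0.33 (-0.09 to 0.74), Mrpl52 0.51 (-0.20 to 1.23), Mrps9 -0.25 (-0.61 to 0.11) and Mrps23 0.24 (-0.12 to 0.60). The median over the 76 was 0.06, and it was -0.16 without innervated control 2. The intervals reach as far as 1.23, for Mrpl52.

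The difference of the denervation change between genotypes, tested as an interaction, was called lower in 0.139% and higher in 0.123% of all genes and in 0 of the 76 (1 with an unadjusted p under 0.05). That gene was again Mrpl44. It read 8420, 6864 and 8073 units in innervated control, 9206, 9118 and 7956 in denervated control, 9291 and 9251 in innervated mutant and 7151, 7679 and 7202 in denervated mutant muscle. This brightest probe set changed with denervation by 0.17 in control and by -0.34 in mutant muscle. Its other tested probe sets had changes of the same sign in both, -0.41, -0.33 and -0.16 in control and -0.28, -0.33 and -0.26 in mutant muscle. At the brightest probe set the interaction was -0.51 on the log2 scale (95% interval -0.93 to -0.09; limma adjusted p = 0.513). Mrpl38 had 0.33 (-0.17 to 0.84), Mrps9 0.30 (-0.18 to 0.78), Mrpl3 0.35 (-0.24 to 0.94) and Mrps28 0.32 (-0.23 to 0.87). Thus the calls that passed in 1 genotype, such as Mrps36, Mrps9 and Mrpl32, were not shown to differ between genotypes.

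The median of the mitochondrial ribosomal protein genes lay between those of the respiratory and the cytosolic ribosomal genes. With all arrays it was close to the median of all genes. The nuclear genes for subunits of the respiratory chain and ATP synthase, which work with the products of the mitochondrial ribosome, had 52 of 76 tested genes lower and 0 higher in control muscle (median -0.65) and 43 lower and 0 higher in mutant muscle (median -0.60). The cytosolic ribosomal protein genes had 1 of 44 lower and 11 higher in control muscle (median 0.40), and 1 lower and 7 higher in mutant muscle (median 0.41). The gene that fell there was Rpl3l, the striated-muscle form of Rpl3 (log2 change -2.28, limma adjusted p = 9.22e-08). In each genotype 57 of the 76 mitochondrial ribosomal protein genes had a log2 change between the medians of these lists (75%), as did 58.9% of all genes in control and 55% in mutant muscle. Without innervated control 2 the median in control muscle was -0.81 for the respiratory genes, with 70 lower. It was 0.16 for the cytosolic ribosomal proteins, with 1 lower and 7 higher. For the mitochondrial ribosomal proteins it was -0.20, with 30.3% lower, against -0.02 and 16.7% for all genes.

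**Figure D3:**
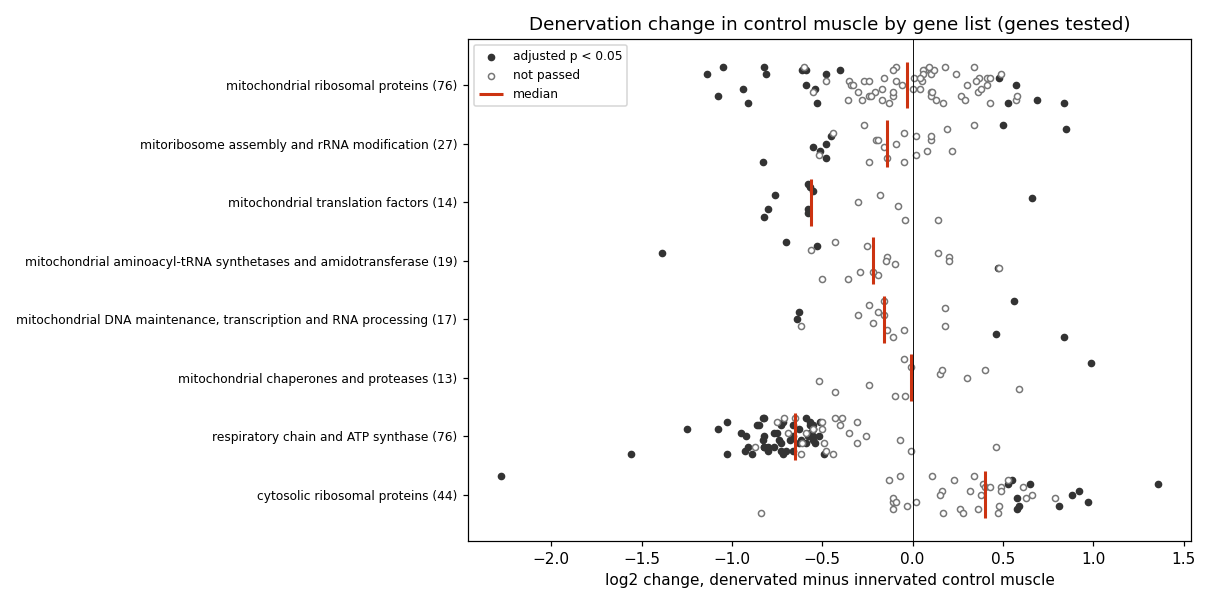
Log2 change with denervation in control muscle (x axis) of each tested gene (points) in 8 gene lists (rows, number of genes tested in brackets). Filled points passed an adjusted p of 0.05 and red bars are medians, which are -0.65 for the respiratory chain, -0.03 for the mitochondrial and 0.40 for the cytosolic ribosomal proteins.

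The gap between list medians on a single array hardly depends on a factor that scales all signals of that array alike. Quantile normalization is not such a factor and can change it. The median log2 signal of the mitochondrial ribosomal proteins minus that of the respiratory genes was -3.00, -3.04 and -2.96 in innervated control and -2.55, -2.42 and -2.44 in denervated control muscle. It was -2.98 and -3.00 in innervated mutant and -2.40, -2.32 and -2.43 in denervated mutant muscle. All 6 denervated arrays lay above all 5 innervated ones, and the gap shifted by 0.53 in control, by 0.61 in mutant and by 0.51 in control muscle without innervated control 2. Against the cytosolic ribosomal proteins the gap was -2.45, -2.27 and -2.42 in innervated control and -3.00, -2.82 and -2.93 in denervated control muscle. In mutant muscle it was -2.38 and -2.53, then -2.99, -2.85 and -2.89. All denervated arrays lay below all innervated ones, with shifts of -0.54 in control, -0.46 in mutant and -0.48 in control muscle without innervated control 2. Against the median of all genes the groups overlapped, and the gap shifted by -0.19 in control, by -0.13 in mutant and by -0.38 in control muscle without innervated control 2. The shifts against the respiratory and cytosolic ribosomal lists therefore hold the moves of those lists as well as that of the mitochondrial ribosomal genes. Innervated control 2 did not stand apart in the gap to the respiratory genes, since its low signal was shared by both lists (16.15 against 16.72 and 16.64 for the respiratory and 13.12 against 13.72 and 13.69 for the mitochondrial ribosomal genes, as median log2 signal). These gaps are descriptions of lists chosen with results of these data known and carry no test, and the level of a gap has no meaning of its own, because probe sets differ in brightness.

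**Figure D4:**
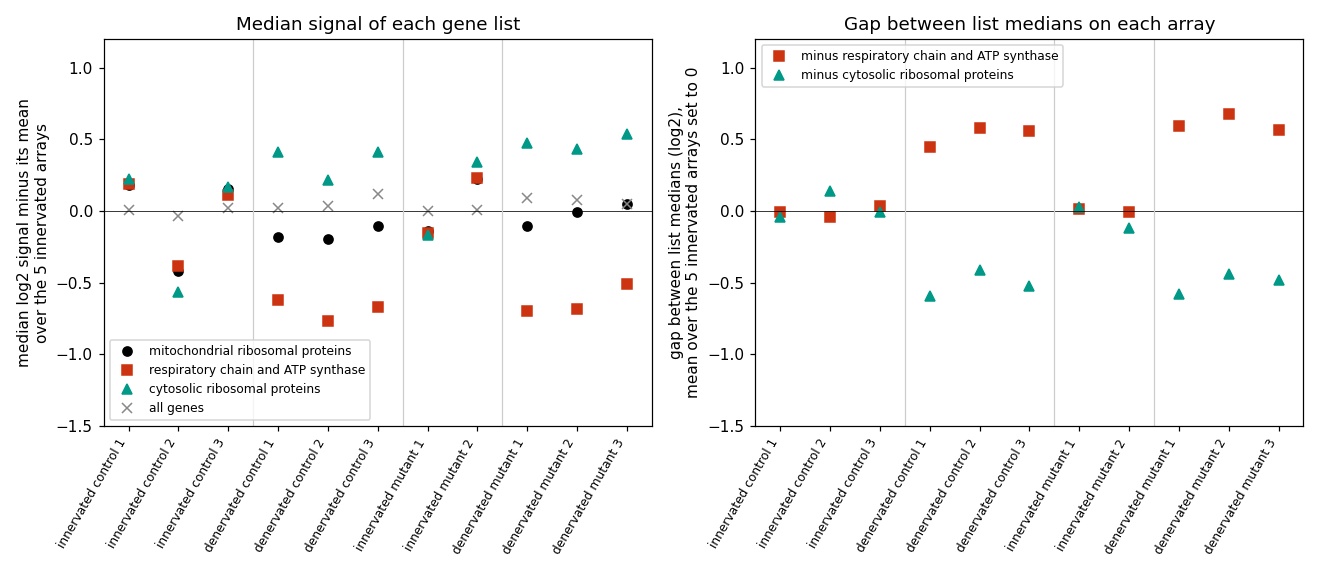
Left, median log2 signal of 4 gene lists on each of the 11 arrays (x axis), minus each list's mean over the 5 innervated arrays. Right, the gap between the median of the mitochondrial ribosomal proteins and that of the respiratory genes (squares) or the cytosolic ribosomal proteins (triangles), set to 0 over the innervated arrays; denervated arrays lie above it for the first and below it for the second, by 0.53 and -0.54 in control muscle.

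Whole muscle was measured, so fewer cells of a type and less RNA per cell cannot be told apart. With denervation, 8 of 10 muscle fibre markers fell in control and 10 of 10 in mutant muscle (medians -0.44 and -0.57), and 4 of 10 in control muscle without innervated control 2 (median -0.41). Of the macrophage and leukocyte markers 6 of 13 rose in control and 10 of 13 in mutant muscle, with a summed signal of 32566 to 41714 in innervated and 89723 to 131686 in denervated control muscle. Of the cell cycle markers 7 of 8 rose in control muscle, with sums of 16475 to 20133 and 36614 to 40917, and 4 of 7 satellite cell and myoblast markers rose, with sums of 12792 to 15083 and 61499 to 92811. Without innervated control 2 the macrophage and leukocyte, cell cycle and satellite cell counts in control muscle were 5, 7 and 4. Their part in the changes of the mitochondrial ribosomal protein genes was not tested.

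Of 4 mitoribosomal proteins known under other symbols 1 fell in control muscle. Dap3, a GTP-binding protein of the small subunit, fell in control muscle (log2 change -0.40, limma adjusted p = 0.0157) and had -0.04 in mutant muscle (limma adjusted p = 0.823). In the interaction 0 of the 4 were called (lowest limma adjusted p = 0.66), so no difference between genotypes was shown. Ptcd3 (-0.31), Chchd1 (-0.19) and Gadd45gip1 (0.13) did not pass in control muscle. The counts were again 1 lower and 0 higher without innervated control 2.

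Of 14 mitochondrial translation factors 8 fell and 1 rose in control muscle (median -0.56), and 4 fell and 0 rose in mutant muscle (median -0.32). Mtif2, the initiation factor, went from 9733 ± 810 to 6532 ± 215 units (mean ± SD, n = 3 arrays each; log2 change -0.57, limma adjusted p = 0.00297). Mtrf1l, a release factor, had a log2 change of -0.82 (limma adjusted p = 0.00374) and Gfm2, which takes part in ribosome recycling, -0.76 (limma adjusted p = 0.00469). The other recycling factor Mrrf rose by 0.66 (limma adjusted p = 0.027). When innervated control 2 was left out, 6 of the 14 fell and 0 rose, and Mrrf had 0.38 (limma adjusted p = 0.0653).

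Of 19 mitochondrial aminoacyl-tRNA synthetases and amidotransferase subunits 3 fell and 1 rose in control muscle (median -0.22), and 3 and 0 without innervated control 2 (median -0.12). The largest fall was that of Qrsl1, a subunit of the amidotransferase that makes glutaminyl-tRNA, by 1.39 on the log2 scale (limma adjusted p = 5.21e-06). Fars2, for phenylalanine, had -0.70 and Hars2, for histidine, -0.53. Of 27 genes for mitoribosome assembly and ribosomal RNA modification 6 fell and 2 rose (median -0.14), and 4 and 1 without innervated control 2 (median -0.15). Malsu1, which acts in the assembly of the large subunit, rose by 0.85 (limma adjusted p = 0.00311). Eral1, a chaperone of the small-subunit ribosomal RNA, fell by 0.51 (limma adjusted p = 0.00635), and Mrm2, which methylates the large-subunit ribosomal RNA, fell by 0.83 (limma adjusted p = 0.00699).

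Of 17 genes for mitochondrial DNA maintenance, transcription and RNA processing 2 fell and 3 rose in control muscle, and 3 and 3 without innervated control 2. Polrmt, the mitochondrial RNA polymerase that Mrpl12 contacts, fell by 0.64 (limma adjusted p = 0.00214), and Tfam, which packages mitochondrial DNA and starts its transcription, fell by 0.63 (limma adjusted p = 0.00311). Elac2, which trims the 3' ends of transfer RNAs, rose by 0.84 (limma adjusted p = 0.000573). Of 13 mitochondrial chaperones and proteases 0 fell and 1 rose by limma, with and without innervated control 2, the protease Htra2 (0.99, limma adjusted p = 0.000115).

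Among 13 regulators of nuclear genes for mitochondria 5 fell and 2 rose in control muscle, with and without innervated control 2. Perm1, a muscle regulator acting with estrogen-related receptors, had a log2 change of -5.73 (limma adjusted p = 6.82e-09). Ppara, a nuclear receptor of fatty acid oxidation, had -2.73 (limma adjusted p = 1.05e-06), and Esrra, an estrogen-related receptor, -1.72 (limma adjusted p = 9.2e-06). Myc, a driver of ribosome production, rose by 3.14 (limma adjusted p = 3.28e-07). The factors classically tied to mitoribosomal promoters did not pass: Nrf1 had 0.23 (limma adjusted p = 0.392), Gabpa -0.20 (limma adjusted p = 0.511) and Yy1 0.27 (limma adjusted p = 0.139).

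Promoter windows of these genes were searched for the motifs of those factors. RefSeq windows of 300 bases, 250 before to 50 after the start (build GRCm38.p6), were matched for 67 of the 76 genes, and Mrpl13, Mrpl15, Mrpl19, Mrpl38, Mrpl4, Mrpl54, Mrps28, Mrps34 and Mrps35 had no window used here. The NRF1 motif GCGCANGCG stood on either strand in 22.4% of the 67 windows, against 6.47% of all 27025 windows and 13.7% of the 9831 windows of tested genes. The GABPA motif CCGGAAG stood in 35.8%, against 9.12% and 17.5%. The YY1 motif AAGATGGC stood in 17.9%, against 2.88% and 4.67%. The E-box CACGTG, which MYC can bind, stood in 7.46%, against 7.24% and 10.3%, and the estrogen-related receptor motif TCAAGGTCA in 0%, against 0.407% and 0.305%. The median GC content was 58.3% in the windows of the 67 genes, 52.7% in all and 61.0% in those of tested genes.

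The matches were also counted by call in control muscle with all arrays. Without innervated control 2 the calls change, and matches were not counted by those calls. NRF1 stood in 2 of 11 windows of genes that fell, 3 of 5 of genes that rose and 10 of 51 of the others. GABPA stood in 3 of 11, 2 of 5 and 19 of 51, and YY1 in 2 of 11, 0 of 5 and 10 of 51. A match is a run of letters and not a bound site.

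The windows of 2 genes that fell and 2 that rose, chosen after their values and motifs were seen, show how such matches are placed. Capitals mark NRF1 and GABPA matches on either strand, and each is printed from 5′ to 3′ on the strand of its gene.
Mrpl18: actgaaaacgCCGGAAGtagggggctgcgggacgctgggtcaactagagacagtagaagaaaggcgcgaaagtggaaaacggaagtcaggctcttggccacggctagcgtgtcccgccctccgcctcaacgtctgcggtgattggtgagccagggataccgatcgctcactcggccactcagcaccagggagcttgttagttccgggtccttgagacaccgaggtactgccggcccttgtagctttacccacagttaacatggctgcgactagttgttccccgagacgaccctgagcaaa
Mrpl33: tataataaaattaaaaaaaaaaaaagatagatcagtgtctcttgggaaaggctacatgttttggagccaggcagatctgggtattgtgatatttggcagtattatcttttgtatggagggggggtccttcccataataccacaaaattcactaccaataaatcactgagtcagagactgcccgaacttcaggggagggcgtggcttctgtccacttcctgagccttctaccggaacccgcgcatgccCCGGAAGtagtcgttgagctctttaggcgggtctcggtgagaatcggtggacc
Mrpl17: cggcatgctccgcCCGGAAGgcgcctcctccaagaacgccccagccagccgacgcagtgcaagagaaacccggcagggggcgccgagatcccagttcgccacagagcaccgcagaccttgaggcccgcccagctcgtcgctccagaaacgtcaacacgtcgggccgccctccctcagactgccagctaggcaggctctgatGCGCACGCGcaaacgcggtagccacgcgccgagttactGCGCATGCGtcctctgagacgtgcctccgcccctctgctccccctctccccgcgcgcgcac
Mrps18b: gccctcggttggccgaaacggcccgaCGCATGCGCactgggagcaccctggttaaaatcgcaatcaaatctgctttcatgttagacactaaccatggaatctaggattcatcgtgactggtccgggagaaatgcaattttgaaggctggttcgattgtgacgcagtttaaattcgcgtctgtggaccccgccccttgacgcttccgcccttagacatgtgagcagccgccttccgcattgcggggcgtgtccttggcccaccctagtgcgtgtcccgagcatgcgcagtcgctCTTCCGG
The Mrpl18 window (chr17:12916042-12916341, minus strand) has 1 GABPA match, which begins 240 bases before the start. The Mrpl33 window (chr5:31613701-31614000, plus strand) has 1 that begins 3 bases before it. The Mrpl17 window (chr7:105811038-105811337, minus strand) has 2 NRF1 matches, which begin 49 and 11 bases before the start, and 1 GABPA match at 237 bases before it. The Mrps18b window (chr17:35916391-35916690, minus strand) has 1 NRF1 match at 224 bases before the start and 1 GABPA match at 43 bases after it. Only called genes that held a motif match could be chosen, so a match in each printed window was set by the choice.

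Many of these genes share their upstream region with a gene on the other strand. A divergent start within 1000 bases was found for 24 of the 67 genes (35.8%), against 16.7% of tested genes and 10.5% of all. Neighbours did not always move as the ribosomal gene did. The start of Mrpl18, which fell, lies 238 bases from that of Tcp1, a subunit of the cytosolic chaperonin, which rose in control (log2 change 0.44 ± 0.11, SE; limma adjusted p = 0.00998) and mutant muscle (0.43, limma adjusted p = 0.0236). The GABPA letters of the Mrpl18 window lie close to the start of Tcp1. Mrpl47 fell together with Ndufb5, a subunit of respiratory complex I with its start 308 bases away (-0.77 ± 0.17, SE; limma adjusted p = 0.00395). Mrpl32 lies 205 bases from Psma2, a proteasome subunit that rose by 1.24 in control (limma adjusted p = 0.000374) and by 1.12 in mutant muscle (limma adjusted p = 0.00221), where Mrpl32 rose as well. Mrpl46 and Mrps11 are neighbours of each other at 42 bases, with log2 changes of -0.21 and -0.48, and both passed without innervated control 2 (-0.45 and -0.67). Mrps12 (0.58) and its neighbour Sars2, a mitochondrial synthetase for serine (-0.43), had changes of opposite sign and neither passed.

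Other probe sets of the same genes did not always give the same call. The 76 genes had 156 probe sets, of which 134 were tested, and 33 genes had more than 1 tested. Of the 58 further probe sets 37 gave the same call as the brightest one in control muscle, 45 had the same sign and 0 were called in the opposite direction. In 13 the brightest was called and the other not, and in 8 the reverse, all of them lower: 1 each of Mrpl1, Mrpl3, Mrpl35, Mrpl44, Mrpl48 and Mrps23 and 2 of Mrps5. The largest was a probe set of Mrpl35 at -1.24 (limma adjusted p = 2.64e-05), where the brightest read 0.37 (limma adjusted p = 0.11). Counted by probe set, 25 of 134 fell and 5 rose, where 14.4% of all 26170 tested probe sets were called lower and 14.9% higher.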

How the data were processed

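RNA of 11 mouse tibialis anterior samples was read on an Affymetrix array of 45101 probe sets. The deposited values are linear intensities that the authors had scaled to a 2% trimmed mean of 2500.02 on each array, as the values show; no source names the program behind them. No columns lay outside the 4 groups, which were taken from the sample titles. A deposited table gave genes: 34958 probe sets have 1 symbol, 932 several and 9211 none.

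Intensities were used as log2(value + 16). The 64 control probe sets were left out, and probe sets above their array's median on at least 2 of 11 arrays were kept (26170). The pseudocount understates changes of dim genes, but the lowest signal used for a member was 3000.7. One mean per group was fitted on all arrays with limma 3.58.1 in R 4.3.3 (trend, Benjamini-Hochberg over all kept probe sets, threshold 0.05); the fit was tested on simulated data. The small number of arrays limits the precision.

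Deviations of innervated and denervated control arrays of equal number correlated at 0.11, 0.22 and 0.30. Those of equal number in other pairs of groups correlated at -0.18 to 0.10. Arrays of unequal number were not compared, so whether the numbers pair the control arrays was not shown. No 2 arrays held identical values. The members, lists and named genes were chosen with earlier results of these data known. Named genes were, by rule, the 10 lowest and 6 highest members in each denervation comparison, the 5 smallest p in each genotype comparison and the interaction, members of known role, members whose probe sets disagree, and up to 3 genes per other list. Members with the highest and lowest signal, also in the rule, are not given, since signals of different probe sets are not compared. Alternatives were other scalings, pseudocounts, filters, probe set rules, thresholds, fits and each array left out; 2 were added after seeing the data, the block in control arrays alone and the count over every probe set. Marker lists of granulocytes, endothelial cells, fibroblasts, Schwann cells and adipocytes had 1 of 2, 0 of 8, 0 of 8, 1 of 5 and 0 of 2 tested genes higher and 0, 5, 0, 2 and 1 lower in denervated control muscle.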

Additional observations from a re-analysis of the deposited data

How the results depend on the processing

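Centring on the spike-in controls moved the median change of all genes to 0.82 in control and 0.46 in mutant muscle and that of the mitochondrial ribosomal protein genes to 0.80 and 0.47, so that 0 fell and 51 rose in control (60.5% of all genes higher, 3.20% lower) and 0 fell and 18 rose in mutant muscle (32.6% and 4.03%). Relative to all genes the median of the 76 was -0.03 in control and 0.01 in mutant muscle, as without centring. This was fixed in advance, since centring shifts all log2 signals of an array alike. Changes in control muscle then became 0.01 for Mrpl12, 0.02 for Mrpl42, 0.22 for Mrps24, 0.24 for Mrpl28 and Mrpl4, 0.29 for Mrpl19, 0.30 for Mrpl2, 0.35 for Mrps9 and 0.43 for Mrpl15. The medians between genotypes became -0.28 in denervated muscle and -0.34 for the interaction. Of the 19 calls in control muscle 9 thus changed sign, 5 kept sign and call and 5 kept only the sign. Median centring gave 6 lower in control muscle (12.6% of all genes) and an interaction median of 0.24. In mutant muscle it gave 2 lower and 16 higher (6.46% and 27.4% of all genes; medians 0.30 and 0.29). Quantile normalization gave 3 higher in mutant muscle (17.6% of all genes).

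With the mean of all probe sets of a gene 9 fell in control muscle, and Mrpl17 read -0.39 in mutant muscle; counting every tested probe set gave 25. Without the trend 9 fell in control and 5 in mutant muscle. Fits of only the groups compared gave 8 lower and 3 higher in control muscle. At a threshold of 0.01 the counts were 5 lower and 2 higher in control and 3 and 2 in mutant muscle. The share of all genes was not counted for the mean of probe sets, without the trend, for only the groups compared or at 0.01. Those counts can therefore not be set against that of all genes. The replicate block gave 12 lower and 4 higher in control muscle (15.9% and 17.4% of all genes). In mutant muscle it gave 8 and 4 (12.3% and 14.7%), and in the control arrays alone 16 and 9 (17.3% and 18.8%). Leaving out each array in turn gave 5 to 23 lower and 3 to 8 higher in control muscle, 3 to 14 and 2 to 8 in mutant muscle, a median of -0.16 to 0.24 between genotypes in innervated muscle and of -0.16 to 0.25 for the interaction. The causes were not tested. Of the 19 genes called in control muscle, Mrps18b and Mrps30 passed with the same direction in every setting, as did Mrps18b among the 16 in mutant muscle. No setting called any of the 76 genes between genotypes or in the interaction by limma. Motif shares counted on the gene's own strand were 14.9% for NRF1, 20.9% for GABPA and 11.9% for YY1.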
